A study of Mus musculus with 20 samples.

Results

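Cell cycle and proliferation genes were followed over the day in dermal lymphatic endothelial cells (LECs), the cells that line the lymphatic vessels of the skin. The list holds 40 of the 24062 gene symbols counted, 10 of them for DNA replication and nucleotide supply and the others for the cyclins, mitosis and cell division. It was selected on the measured counts of Top2a, which followed a 24-h curve, and was completed with genes known for the same process. Values of Top2a are therefore given as a description with no test, and the other 39 genes were tested. All 40 symbols were found, and all 40 passed the filter on low counts, as did 19209 symbols in all.

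The cells were sorted from digested ear skin as live CD31+podoplanin+ cells of wild type C57BL/6 mice (C57BL/6N in the study's methods) at postnatal day 56. No group carried a treatment or a transgene. By their labels, the 4 groups differed in the time of collection only, which was zeitgeber time (ZT, hours after lights on) 1, 7, 13 or 19. There were 5 libraries at each. Depth and the number of genes detected differed too, as given below. Each library was a pool of the ears of a pair of mice, so the spread between libraries is that between pools.

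A dividing cell copies its DNA in S phase and separates the copies in mitosis. The MCM helicase, the sliding clamp Pcna and the enzymes that make deoxynucleotides serve the first step, while cyclin B with Cdk1 starts the second and the anaphase-promoting complex with Cdc20 ends it. Lymphatic endothelium of adult skin is known as a largely quiescent tissue, in which dividing cells are rare. In bulk RNA, fewer cycling cells and less RNA per cycling cell cannot be told apart.

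Between 4475111 and 42002363 reads were counted on genes per library (median 9379794), and depth at ZT19 exceeded that at ZT1 by 1.48 on the log2 scale (exact permutation test, two-sided, adjusted p = 0.0476 over 6 pairs). The libraries detected between 12477 and 21697 genes. In 7 libraries, 2 at ZT7, 2 at ZT13, 3 at ZT19 and none at ZT1, fewer than 17000 genes were detected, and the value without them is given beside each difference of a single gene below that moved by over 1.5 times. The genes on the list made up between 0.0651% and 0.251% of the counts of a library, and up to 4 of the 40 were at 0 in one library. Normalized counts below are counts scaled to a common library size, on which the limit that a count of 0 allows (3 counts) lay between 0.648 and 7.18, a limit of counting error only.

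As a check of the sort, 8 of 9 LEC markers, Prox1 and Lyve1 among them, were detected in every library and Stab2 in all but 1. Keratinocyte genes were detected as well: the summed normalized count of 14 keratinocyte markers was 38398 to 75621 at ZT1, 64604 to 182758 at ZT7, 12033 to 33299 at ZT13 and 98120 to 196566 at ZT19. That of 9 LEC markers was 78782 to 104629, 46044 to 96410, 74932 to 113763 and 64291 to 84843. For ZT19 the median log2 fold change of the LEC markers was -0.69 against ZT1 and -0.46 against ZT13, where all genes had medians of -0.39 and -0.22. In each pair 8 of 9 were below 0 and 2 were lower at an unadjusted p of 0.05 or less (against 14.4% and 11.9% of all genes). The part of these markers in the cell cycle values was not tested. Markers listed for the hair follicle matrix, which were hair keratins and Hoxc13, summed to between 0 and 300 per library. Whether dividing follicle cells were present was not tested.

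Per kilobase of exon and scaled by library size as in RPKM, the median levels were highest for Hmgb2, a chromatin protein, at 30.6, followed by Pcna at 27.8 and Mcm6 at 17.9. At the lower end stood the spindle checkpoint kinase Bub1 at 1.15 and cyclin E1 (Ccne1) at 1.02. On the same scale, the LEC transcription factor Prox1 stood at 28.9 and the endothelial adhesion molecule Pecam1 at 63.0. The hyaluronan receptor Lyve1 stood at 526, and the keratins of basal keratinocytes Krt14 and Krt5 at 1204 and 585.

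The promoters of 4 genes are shown because the results turn on these genes. They are RefSeq sequences of build GRCm38.p6, 250 bases before to 50 after the start site, and capitals mark the motifs CHR (the cell cycle genes homology region, TTTGAA or TTCGAA) and CCAAT (the box bound by NF-Y), on either strand. Top2a encodes the DNA topoisomerase that untangles sister chromatids, Ccnb1 is cyclin B1, Cdc20 the activator of the anaphase-promoting complex and Pcna the clamp of the replicative polymerase.
Top2a, chr11:99024140-99024439, minus strand: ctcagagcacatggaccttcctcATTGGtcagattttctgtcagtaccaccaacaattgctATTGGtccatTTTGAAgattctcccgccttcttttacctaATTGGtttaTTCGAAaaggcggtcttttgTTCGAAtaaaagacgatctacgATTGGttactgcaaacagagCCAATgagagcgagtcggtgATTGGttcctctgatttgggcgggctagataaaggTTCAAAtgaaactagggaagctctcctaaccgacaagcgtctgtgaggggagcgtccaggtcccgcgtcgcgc
Ccnb1, chr13:100786437-100786736, minus strand: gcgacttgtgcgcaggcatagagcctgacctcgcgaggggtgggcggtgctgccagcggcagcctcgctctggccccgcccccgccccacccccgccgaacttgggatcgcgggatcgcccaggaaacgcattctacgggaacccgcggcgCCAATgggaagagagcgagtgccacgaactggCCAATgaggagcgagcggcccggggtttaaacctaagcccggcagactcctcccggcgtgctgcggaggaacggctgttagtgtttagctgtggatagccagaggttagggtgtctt
Cdc20, chr4:118437294-118437593, minus strand: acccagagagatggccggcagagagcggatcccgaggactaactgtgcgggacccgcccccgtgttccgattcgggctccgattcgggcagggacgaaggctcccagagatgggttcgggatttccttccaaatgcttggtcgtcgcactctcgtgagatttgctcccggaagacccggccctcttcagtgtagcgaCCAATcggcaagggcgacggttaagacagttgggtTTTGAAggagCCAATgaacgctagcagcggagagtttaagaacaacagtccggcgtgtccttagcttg
Pcna, chr2:132253131-132253430, minus strand: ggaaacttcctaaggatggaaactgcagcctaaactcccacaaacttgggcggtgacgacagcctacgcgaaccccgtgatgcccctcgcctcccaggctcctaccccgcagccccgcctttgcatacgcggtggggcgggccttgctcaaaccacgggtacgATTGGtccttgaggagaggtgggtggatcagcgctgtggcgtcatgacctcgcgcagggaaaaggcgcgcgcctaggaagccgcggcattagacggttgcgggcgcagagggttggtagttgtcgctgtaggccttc

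The Top2a promoter held 4 places that matched CHR and 6 that matched CCAAT, all before the start site. Cdc20 held 1 and 2 of them, Ccnb1 had 2 CCAAT boxes and Pcna had 1, and neither of the last pair held the CHR letters in this window. Of the 40 genes, 34 had a promoter in the RefSeq table, with 37 promoters in all. CHR letters were found in 24 of the 37 (64.9%), against 19.2% of 32851 promoters of the same length. CCAAT was found in 86.5% against 37.4%. The E2F site forms TTTGGCGC, TTTCGCGC, TTTCCCGC and TTTGCCGC, searched on both strands, were found in 13.5% against 2.26%. By role, CHR letters were in the promoters of 2 of 9 replication genes and of 20 of 25 others, and E2F forms in those of 4 of 9 and 1 of 25. These are matches of letters and no measure of binding.

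The first comparison asked whether levels depended on the time of collection, over all 4 time points. Ccnb1 and Cdc20 were called (edgeR quasi-likelihood test, Benjamini-Hochberg adjusted p = 0.0476 and 0.0495), 2 of 39 against 0.422% of all genes tested. Both calls were lost under RLE normalization (adjusted p = 0.0823 for Ccnb1 and 0.104 for Cdc20, edgeR), upper quartile normalization (0.0994 and 0.142), the filter at 20 counts (0.0728 and 0.0724), the replicate number as a block (0.151 and 0.168) and the keratinocyte covariate (0.118 and 0.133). With each library left out in turn, Ccnb1 was called in 6 of 20 fits and Cdc20 in 3 of 20. Both calls held with no filter (0.0295 and 0.0435) and with DESeq2 (0.0037 and 0.0145), which also called Pcna (0.00316), Tpx2 (0.0353) and Mki67 (0.0448). The 0.422% is the share under edgeR, and that under DESeq2 is not given here. At an unadjusted p of 0.05 or less stood 19 of the 39 (48.7%) against 15.7% of all genes. The mean level was highest at ZT19 for 26 genes and at ZT1 for 13, and for none at ZT7 or ZT13. Over all genes tested these shares were 27% for ZT19, 27.2% for ZT1, 27.7% for ZT7 and 18.1% for ZT13. The lowest mean was at ZT7 for 22 genes, at ZT13 for 15 and at ZT19 for 2, while 46.0% of all genes were lowest at ZT19. Without the 7 libraries with few genes detected, the highest mean was at ZT1 for 24 genes, at ZT19 for 13 and at ZT7 and ZT13 for 1 each.

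**Figure D1:**
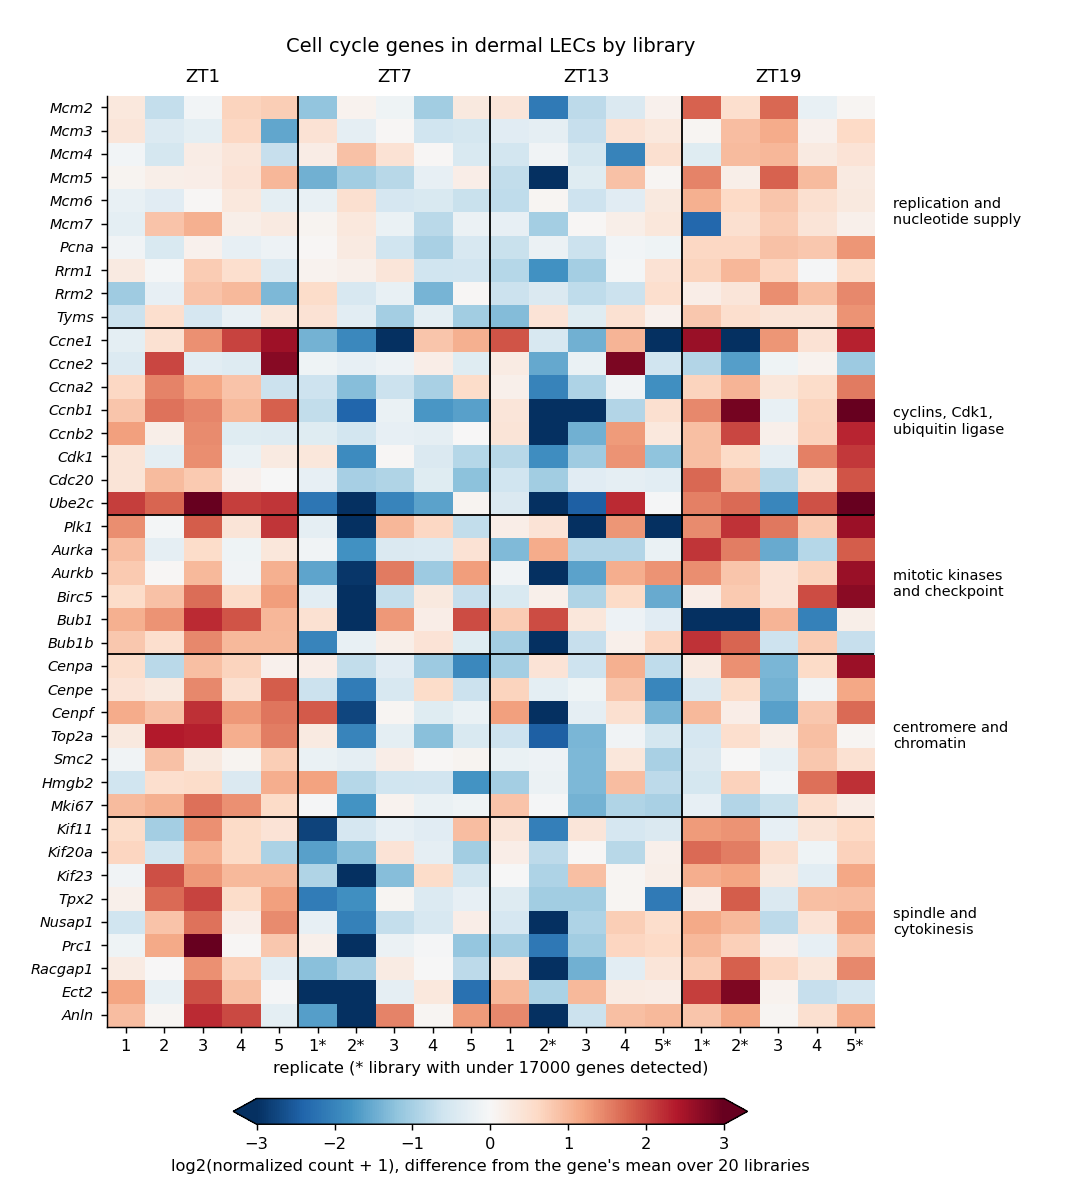
Heat map of the 40 cell cycle genes (rows, by role) in the 20 libraries (columns, by time point and replicate). The colour gives log2(normalized count + 1) as a difference from the mean of the gene over the 20 libraries, and asterisks mark the 7 libraries with under 17000 genes detected; replication genes are red mainly at ZT19, and the mitotic genes at ZT1 and ZT19.

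A curve with a period of 24 h was fitted to each gene. No gene of the 39 passed the adjusted threshold (0 against 0.0312% of all genes, edgeR), with the smallest adjusted p at 0.0859 for Ccnb1, while 23 (59.0%) stood at an unadjusted p of 0.05 or less against 9.23%. DESeq2 called 3, and its share of all genes called is not given here. The fitted peak lay between 18 and 1 h for 37 of the 39 genes (94.9%), against 28.3% of all genes tested. This window holds the peak of Top2a, at 23.8 h, whose curve led to the list, so the share is a description and no test. The exceptions were cyclin E2 (Ccne2), with a fitted peak at 4.54 h, and Bub1 at 4.95 h, which were named after their values were seen and were also the 2 genes with the lowest mean at ZT19. Neither curve passed (edgeR, unadjusted p = 0.832 for Ccne2 and 0.46 for Bub1). The normalized counts of Bub1 at ZT19 were 0.255, 0, 71.1, 7.74 and 39.2, in part at the floor. Amplitudes on the log2 scale ran from 0.174 for Mcm4 to 1.96 for Ube2c, the ubiquitin-conjugating enzyme of the anaphase-promoting complex, with a median of 0.819.

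**Figure D2:**
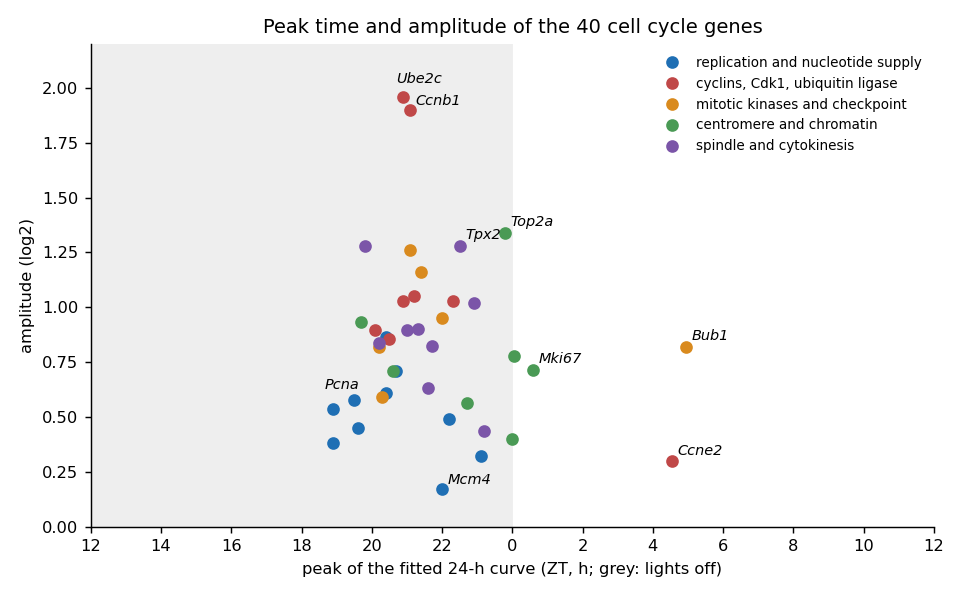
Peak time of the fitted 24-h curve (horizontal axis, ZT in h, dark phase in grey) against its amplitude on the log2 scale (vertical axis) for the 40 genes, coloured by role. Most points lie between 18 and 1 h, Ccnb1 and Ube2c have the largest amplitudes at 1.90 and 1.96, and Ccne2 and Bub1 lie apart in the light phase.

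Of the 10 genes for replication and nucleotide supply, 9 had their highest mean at ZT19. The exception was Mcm7, a helicase subunit, whose mean was highest at ZT1 and whose exons overlap those of Ap4m1, Cops6, Mir25 and Mir93. The median log2 fold change of the 10 genes was -0.31 for ZT7 against ZT1 and -0.34 for ZT13 against ZT1, with none at an unadjusted p of 0.05 or less, and the lowest values were -0.97 for Mcm5 at ZT7 and -0.72 for Rrm1 at ZT13. Without the 7 libraries with few genes detected the medians were -0.55 and -0.53. For ZT19 the median was 0.72 against ZT1, 0.98 against ZT7 and 0.97 against ZT13. At an unadjusted p of 0.05 or less, 3, 7 and 8 of the 10 were higher at ZT19 in these comparisons (against 7.25%, 6.7% and 7.28% of all genes), and none passed the adjusted threshold.

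Pcna gave normalized counts of 712, 564, 844, 647 and 687 at ZT1 and of 793, 935, 512, 389 and 551 at ZT7. The values were 485, 684, 496, 732 and 706 at ZT13 and 1179, 1177, 1406, 1345 and 1942 at ZT19. Every library at ZT19 lay above every library at the other 3 time points, and those 3 groups overlapped with each other. On the log2 scale, ZT19 exceeded ZT13 by 1.18 ± 0.29 for Pcna (SE; edgeR, adjusted p = 0.0525) and ZT1 by 1.03 ± 0.29 (adjusted p = 0.093). Among the 4 time points its adjusted p was 0.0604. Copies of Pcna (Pcna-ps1 and Pcna-ps2) lie elsewhere in the genome, and reads that fit more than 1 place were not counted.

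Mcm6, a subunit of the helicase ring, gave 802, 747, 968, 1184 and 766 at ZT1 and 809, 1324, 662, 685 and 594 at ZT7. It gave 559, 982, 611, 748 and 1151 at ZT13 and 1980, 1423, 1672, 1308 and 1152 at ZT19. The groups at ZT13 and ZT19 did not overlap, although the highest value of the former, 1151, was next to the lowest of the latter, 1152. The difference was 0.89 ± 0.30 on the log2 scale (SE; edgeR, adjusted p = 0.105). Mcm5, another subunit, had means of 546 ± 159, 279 ± 129, 360 ± 261 and 859 ± 406 at ZT1, ZT7, ZT13 and ZT19 (SD, n = 5). Its difference between ZT19 and ZT7 was 1.62 ± 0.48 (SE; edgeR, adjusted p = 0.107).

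**Figure D3:**
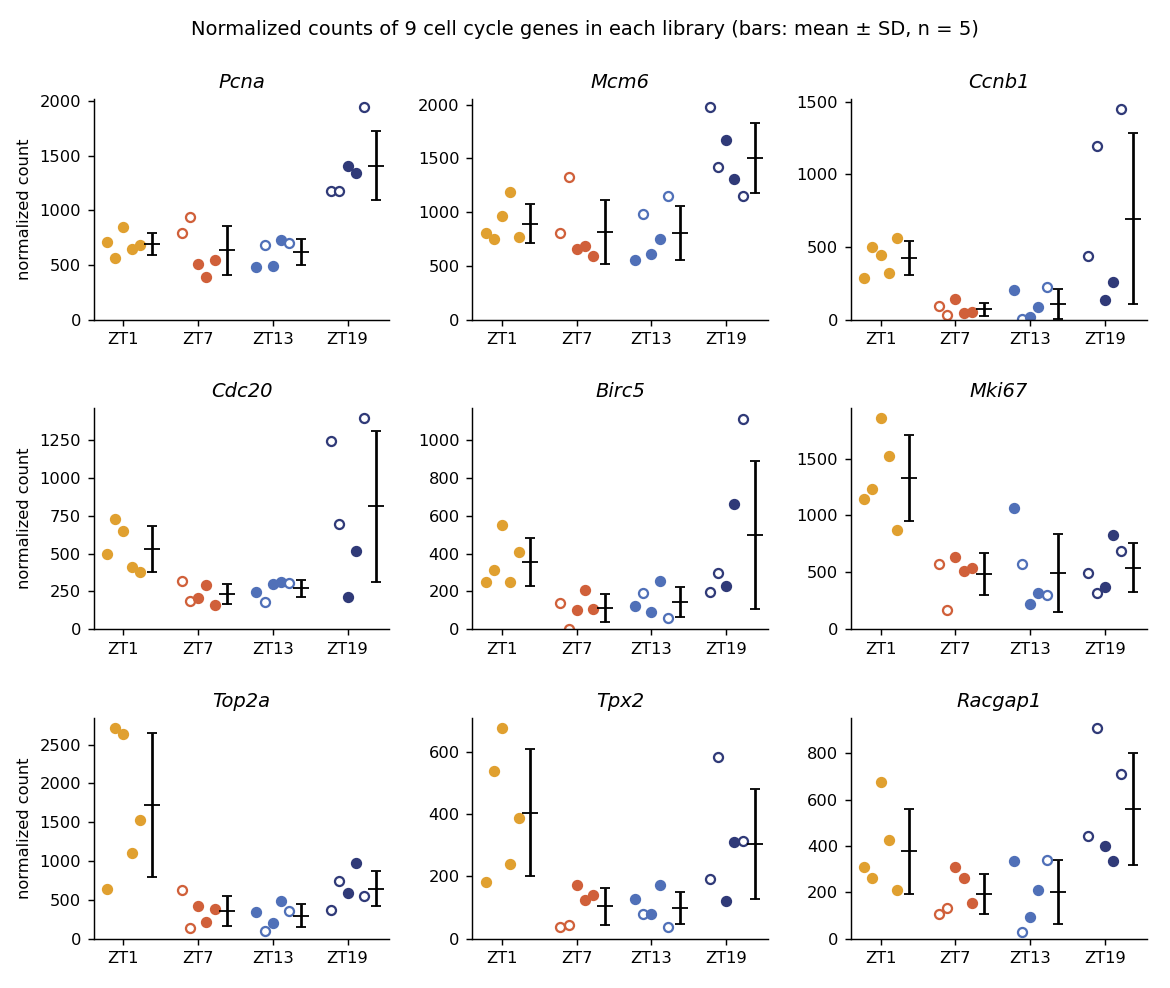
Normalized counts (vertical axes) of 9 cell cycle genes in each library at 4 time points (horizontal axes), with open circles for libraries with under 17000 genes detected and bars for the mean ± SD (n = 5). Pcna at ZT19 lies above all other libraries (1177 and more, against at most 935), whereas Mki67, Tpx2 and Top2a have their highest mean at ZT1.

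The cyclins, Cdk1 and the mitotic ubiquitin ligase formed a group of 8 genes that was low at ZT7 and ZT13. The median log2 fold change was -1.41 for ZT7 against ZT1 and -1.05 for ZT13 against ZT1, with 4 and 3 genes lower at an unadjusted p of 0.05 or less (against 4.19% and 3.84% of all genes). Against the same time points, ZT19 stood higher by a median of 1.74 and 1.51, with 6 and 4 genes at that threshold (against 6.7% and 7.28%). None passed the adjusted threshold in these pairs, and without the 7 libraries the medians of ZT19 were 0.78 against ZT7 and 0.29 against ZT13. ZT19 against ZT1 had a median of 0.32, which turned to -0.56 without them. Ccne2 went the other way, with a mean of 41.8 ± 20.4 at ZT19 against 166 ± 171 at ZT1 (SD, n = 5), where 2 libraries with 258 and 426 carried the mean and the other 3 lay between 47.8 and 51.1.

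Ccnb1 gave normalized counts of 288, 503, 448, 320 and 560 at ZT1 and of 97.1, 30.3, 140, 47.5 and 51.4 at ZT7. It gave 208, 5.30, 17.9, 87.4 and 228 at ZT13 and 439, 1195, 138, 258 and 1447 at ZT19. The libraries at ZT1 lay above all those at ZT7 and ZT13, and the group at ZT19 was the widest and overlapped with every other group. The difference from ZT1 was -2.55 ± 0.72 at ZT7 (SE; edgeR, unadjusted p = 0.00148, adjusted p = 0.684) and -1.94 ± 0.70 at ZT13. ZT19 was higher than ZT7 by 3.26 ± 0.74 (adjusted p = 0.107) and than ZT13 by 2.66 ± 0.72 (adjusted p = 0.0759). Without the 7 libraries with few genes detected, the difference between ZT19 and ZT7 was 1.41, that between ZT19 and ZT13 was 0.99 and the adjusted p among the 4 time points was 0.107.

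Cdc20 gave 494, 726, 650, 413 and 376 at ZT1 and 318, 189, 203, 293 and 161 at ZT7. The values were 248, 182, 300, 311 and 305 at ZT13 and 1241, 693, 211, 515 and 1399 at ZT19. As for Ccnb1, every library at ZT1 lay above those at ZT7 and ZT13, and the ZT19 group held the highest values and 1 library among the low ones. Cdc20 was higher at ZT19 than at ZT7 by 1.80 ± 0.40 (SE; edgeR, adjusted p = 0.107) and than at ZT13 by 1.59 ± 0.40 (adjusted p = 0.062). Without the 7 libraries the former was 0.83, the latter 0.42 and the adjusted p among the 4 time points 0.158. The exons of Cdc20 overlap with those of Elovl1 over 53 bases, and the kit does not mark the strand.

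Ccna2 (cyclin A2), which serves both S phase and entry into mitosis, had means of 382 ± 173, 155 ± 89.6, 130 ± 82.4 and 393 ± 140 over the same 4 time points (SD, n = 5). Its groups at ZT13 (52 to 236) and ZT19 (267 to 619) did not overlap, and they differed by 1.59 ± 0.50 on the log2 scale (SE; edgeR, adjusted p = 0.096). Without the 7 libraries this difference was 0.75. Ube2c, named after its values were seen, gave 237 to 589 at ZT1 and 0 to 74.6 at ZT7, with an adjusted p of 0.684 (edgeR) for that difference.

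Of the mitotic kinases and checkpoint genes, 5 of 6 had their highest mean at ZT19 and Bub1 at ZT1. With the 7 few-gene libraries left out, 1 of 6 was highest at ZT19 and 4 at ZT1, and the median for ZT19 turned from 0.49 to -0.41 against ZT1 and from 1.44 to -0.05 against ZT7. Birc5 (survivin), a subunit of the chromosomal passenger complex, gave 251, 314, 552, 251 and 407 at ZT1 and 138, 0, 104, 209 and 105 at ZT7. At ZT13 it gave 125, 191, 91.2, 255 and 59.0, and at ZT19 196, 295, 229, 663 and 1113. All libraries at ZT1 lay above those at ZT7, and ZT19 overlapped with ZT7 through 1 library. The difference between ZT19 and ZT7 was 2.17 ± 0.74 on the log2 scale (SE; edgeR, adjusted p = 0.122).

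Bub1b (BubR1), which holds back anaphase until chromosomes are attached, had means of 217 ± 53.4, 95.7 ± 45.6, 84.2 ± 66.1 and 240 ± 192 at ZT1, ZT7, ZT13 and ZT19 (SD, n = 5). ZT1 lay above ZT7 in every library, whereas the ZT19 libraries ran from 67.4 to 503. The spindle pole kinase Aurka had means of 98.7 ± 33.7, 62.3 ± 29.9, 69.6 ± 56.4 and 183 ± 143. Its values at ZT19 were 348, 225, 26.5, 42.6 and 273, of which the 3 high ones came from the libraries with few genes detected. ZT19 against ZT7 was 1.56 ± 0.76 (SE; edgeR, adjusted p = 0.254) and -0.99 without those libraries.

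In the centromere and chromatin group, the means of 4 of 6 tested genes were highest at ZT1 and those of Cenpa and Hmgb2 at ZT19. Mki67, whose protein coats mitotic chromosomes and marks cycling cells, gave 1140, 1230, 1857, 1526 and 876 at ZT1 and 573, 168, 633, 511 and 540 at ZT7. It gave 1064, 577, 220, 316 and 300 at ZT13 and 494, 318, 371, 829 and 689 at ZT19. The ZT1 group lay above the ZT7 and ZT19 groups with no overlap, and 1 library at ZT13 reached into it. The log2 difference of Mki67 from ZT1 was -1.45 ± 0.42 for ZT7, -1.42 ± 0.42 for ZT13 and -1.30 ± 0.41 for ZT19 (SE). The adjusted p values in these pairs were 0.684, 0.487 and 0.0951 (edgeR), and 0.117 among the 4 time points.

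Top2a gave 635, 2716, 2633, 1105 and 1523 at ZT1 and 632, 131, 425, 220 and 381 at ZT7. It gave 338, 95.4, 202, 487 and 361 at ZT13 and 370, 740, 592, 971 and 544 at ZT19. Its 24-h curve had a peak at 23.8 h and a log2 amplitude of 1.34. By Spearman's rho over the 20 libraries, a measure that includes the time of day, the genes most like Top2a were Ptprs (0.848), Celf1 (0.811), Tuba1c (0.794), Ppp1r8 (0.791) and Luzp1 (0.789). They were followed by Tfap2b (0.774), Mcmbp (0.773), 4930506M07Rik (0.771), Atp6v0d1 (0.762) and Cenpl (0.759). Of the list, Tpx2 (0.759), Birc5 (0.753) and Ccnb1 (0.749) ranked next to them, and Mcm4 ranked last at 0.0331.

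Cenpa, the histone variant of centromeres, had means of 310 ± 119, 154 ± 79.8, 243 ± 160 and 548 ± 513 from ZT1 to ZT19 (SD, n = 5). The last mean rested on 1 library at 1403, and the other 4 lay between 90.4 and 613. Hmgb2 had the highest counts of the list, with means of 1545 ± 723, 1082 ± 976, 1024 ± 740 and 2641 ± 1960. Its groups overlapped at all 4 time points, and ZT19 against ZT13 was 1.37 ± 0.55 (SE; edgeR, adjusted p = 0.167).

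The 9 spindle and cytokinesis genes were lower at ZT7 than at ZT1 in 9 of 9 means, by a median of -1.41 on the log2 scale, and in 9 of 9 at ZT13, by -0.90. Tpx2, which activates Aurka on the spindle, gave 183, 537, 678, 241 and 386 at ZT1 and 38.1, 45.2, 173, 125 and 140 at ZT7. It gave 127, 79.5, 79.3, 172 and 37.1 at ZT13 and 190, 583, 122, 311 and 315 at ZT19. ZT1 lay above ZT7 and ZT13 in every library. The differences from ZT1 were -1.96 ± 0.56 at ZT7 and -2.04 ± 0.56 at ZT13 (SE; edgeR, adjusted p = 0.684 and 0.452), and the adjusted p among the 4 time points was 0.0994.

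Prc1, which bundles the microtubules of the spindle midzone, had means of 594 ± 652, 147 ± 86.2, 178 ± 131 and 306 ± 98.4 from ZT1 to ZT19 (SD, n = 5). One ZT1 library reached 1743 and the other 4 lay between 190 and 460, and without that library the difference between ZT7 and ZT1 moved from -2.02 to -1.08. Exons of Prc1 overlap those of Rccd1. Racgap1, the GTPase-activating partner of Kif23 in cytokinesis, had means of 376 ± 185, 193 ± 88.0, 201 ± 139 and 560 ± 243. Its ZT7 libraries (108 to 311) lay below all those at ZT19 (333 to 910), by 1.54 ± 0.52 (SE; edgeR, adjusted p = 0.118). Without the 7 libraries this was 0.70.

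Between pairs of time points, the 39 genes were lower at ZT7 than at ZT1 by a median of -0.97 on the log2 scale, where the median of all genes tested was 0.05. At an unadjusted p of 0.05 or less, 12 were lower (30.8%, against 4.19% of all genes) and 0 higher (against 0.781%). For ZT13 against ZT1 the medians were -0.77 and -0.06, with 7 lower (17.9% against 3.84%) and 0 higher (against 1.53%). ZT13 against ZT7 had a median of 0.09, with 0 genes higher (against 1.16%) and 0 lower (against 1.43%).

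ZT19 stood above ZT7 by a median of 1.28 over the 39 genes and of -0.20 over all genes, with 22 higher (56.4% against 6.7%) and 0 lower (against 13%). It stood above ZT13 by 1.17 against -0.22, with 19 higher (48.7% against 7.28%) and 0 lower (against 11.9%). For ZT19 against ZT1 the median was 0.49 against -0.39, with 3 higher (against 7.25%) and 2 lower (against 14.4%). Without the 7 libraries with few genes detected, the medians of ZT19 were 0.69 against ZT7, 0.67 against ZT13 and -0.38 against ZT1. In the edgeR fit used throughout, no gene of the 39 passed the adjusted threshold in any of the 6 pairs. With at least 20 counts in at least 10 libraries as the filter, edgeR called 1 for ZT19 against ZT13, and DESeq2 called 2 for ZT19 against ZT1, 6 for ZT19 against ZT7 and 3 for ZT19 against ZT13. For the edgeR fit used throughout, the share of all genes that passed was 0.00521% for ZT7 against ZT1, 0.0208% for ZT13 against ZT1 and 0.0156% for ZT19 against ZT1. It was 0.0937% for ZT13 against ZT7, 0.0156% for ZT19 against ZT7 and 0.588% for ZT19 against ZT13. The shares under DESeq2 and under the filter at 20 counts are not given here, so their counts cannot be set against these. These comparisons share groups and are not independent of each other.

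The same pairs were read by single libraries. All 5 libraries of ZT1 lay above all 5 of ZT7 for 7 genes, Ccnb1, Cdc20, Ube2c, Birc5, Bub1b, Mki67 and Tpx2, against 1.17% of all genes tested. ZT1 lay above ZT13 in this way for Ccnb1, Cdc20 and Tpx2 (against 0.984%). ZT19 lay above ZT7 for Pcna, Ccnb2 and Racgap1 (against 0.921%) and above ZT13 for Mcm6, Pcna and Ccna2 (against 1.87%).

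**Figure D4:**
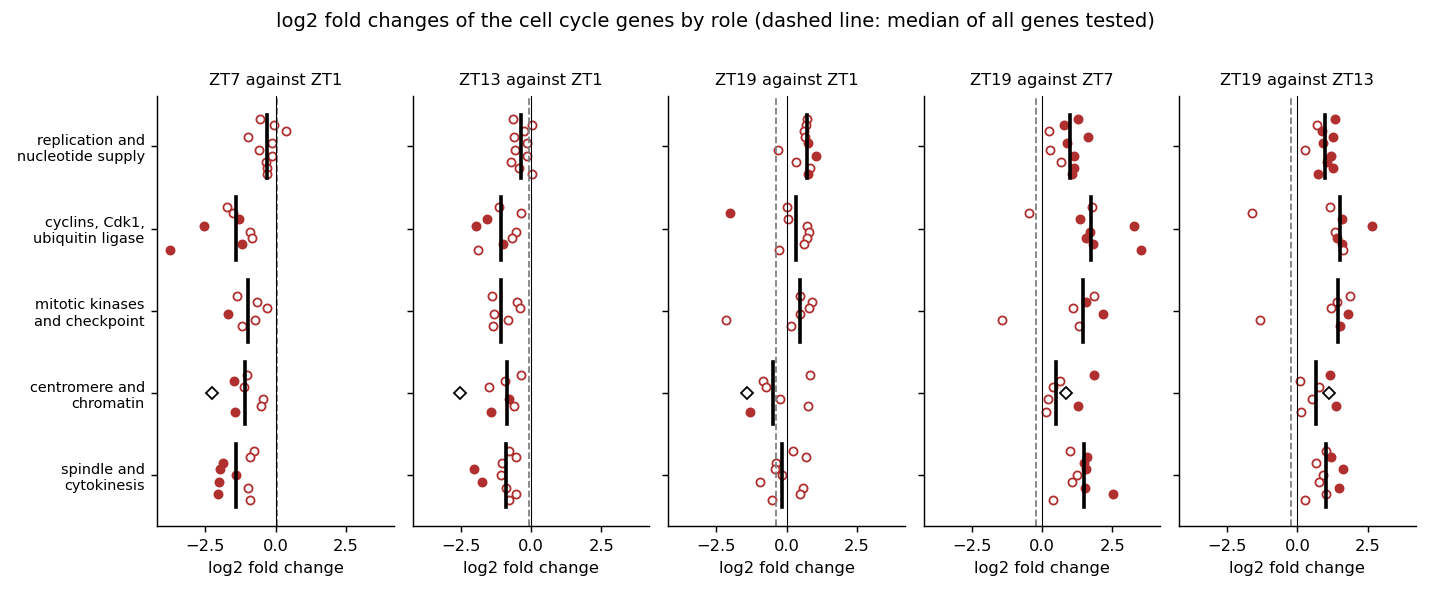
log2 fold changes (horizontal axes) of the 40 genes by role (rows) in 5 comparisons of time points, filled where the unadjusted p was 0.05 or less, with a diamond for Top2a, which was not tested. Thick bars give the median of the role and the dashed line that of all genes tested: the medians for ZT7 and ZT13 against ZT1 are -0.31 and -0.34 for the replication genes and lower for the other roles.

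The order of ZT1 and ZT19 was read for replication and mitotic genes in turn, and the difference between these groups of genes was not tested. The mean over 10 replication genes, each as log2(normalized count + 1) centred on its own mean, stood at 0.02 ± 0.26, -0.27 ± 0.25, -0.38 ± 0.43 and 0.62 ± 0.27 in the order ZT1, ZT7, ZT13, ZT19 (SD, n = 5). The lowest ZT19 library, at 0.39, lay above the highest of the other time points, at 0.36. The mean over 27 mitotic genes, which leaves out Top2a and the E cyclins, stood at 0.80 ± 0.41, -0.79 ± 0.99, -0.68 ± 0.98 and 0.67 ± 0.63, and ZT1 and ZT19 overlapped. Within time points, the mean correlation between pairs of genes was 0.174 among replication genes, 0.311 among mitotic genes and -0.0313 between them, and 0.065 among all genes tested (20 libraries, a description).

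Leaving out the 7 libraries with few genes detected, which leaves 2 libraries at ZT19, 3 each at ZT7 and ZT13 and 5 at ZT1, was an alternative chosen after seeing the data. The mean was then highest at ZT19 for 10 of 10 replication genes and at ZT1 for 9 of 9 spindle and cytokinesis genes. ZT19 against ZT1 had a median of 0.81 over the replication genes, of -0.56 over the cyclin group, of -0.41 over the kinases and checkpoint genes, of -0.79 over the centromere group and of -0.95 over the spindle group. Over the 39 genes that median turned from 0.49 to -0.38, and 24 genes then had their highest mean at ZT1. ZT7 and ZT13 stayed below ZT1, by medians of -0.93 and -0.73. The median of ZT19 went from 1.28 to 0.69 against ZT7 and from 1.17 to 0.67 against ZT13, with 6 and 10 of the 39 genes below 0 in place of 2 and 2.

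**Figure D5:**
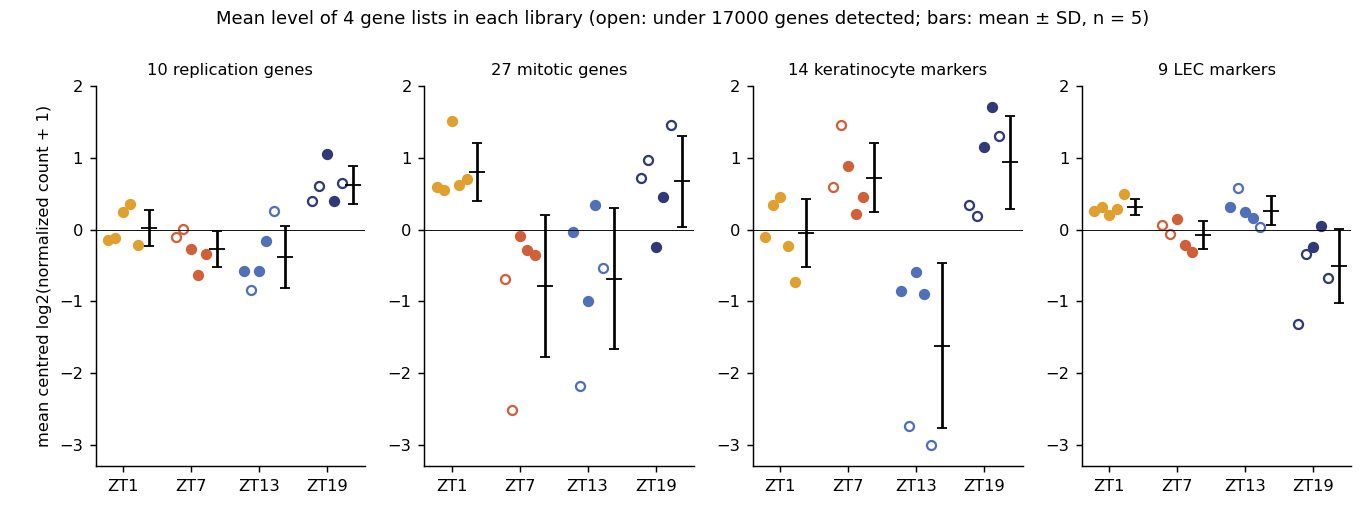
Mean level of 4 gene lists (vertical axes, mean of log2(normalized count + 1) centred per gene) in each library at the 4 time points (horizontal axes), with open circles for libraries with under 17000 genes detected and bars for the mean ± SD (n = 5). Replication genes are highest at ZT19 and mitotic genes at ZT1 and ZT19, while keratinocyte markers are lowest at ZT13 and high at ZT7 and ZT19.

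Keratinocyte markers moved with part of this pattern. All 14 had their lowest mean at ZT13 and 10 their highest at ZT19, and 7 passed the adjusted threshold among the 4 time points (edgeR). Their median log2 fold change against ZT1 was 0.77 for ZT7, -1.13 for ZT13 and 1.05 for ZT19. At ZT7 the markers thus stood above ZT1 while the cell cycle genes stood lower. Within time points, the mean correlation of the keratinocyte markers was 0.00494 with the replication genes and 0.0271 with the mitotic genes. With the keratinocyte level as a covariate, the median of the 39 genes was -1.0 for ZT7 against ZT1, -0.74 for ZT13 against ZT1, 1.19 for ZT19 against ZT7 and 1.03 for ZT19 against ZT13. In that fit 5 genes, in place of 19, were higher at ZT19 than at ZT13 at an unadjusted p of 0.05 or less. Of all genes, 3.42% in place of 7.28% were. The adjusted threshold was passed by 5 in place of 0 for ZT19 against ZT7 and by 1 in place of 0 for ZT19 against ZT1. The share of all genes that passed it in that fit is not given here. The epidermis holds dividing cells, and which cells the cell cycle counts came from was not tested.

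Fibroblast markers were also lower at ZT7 and ZT13 than at ZT1 in most of their means. The summed normalized count of 10 of them was 4604 to 16298 for ZT1, 850 to 4090 for ZT7, 284 to 8365 for ZT13 and 1059 to 11200 for ZT19. Their median log2 fold change was -0.96 for ZT7 against ZT1, with 8 of 10 below 0 and 4 lower at an unadjusted p of 0.05 or less (against the 4.19% above), and -0.56 for ZT13 against ZT1. It was 0.56 for ZT19 against ZT7 and -0.58 for ZT19 against ZT1. None of the 10 passed the adjusted threshold among the 4 time points in edgeR or in DESeq2, and 3 and 2 stood at the unadjusted one. For ZT19 against ZT1, 9 leukocyte markers had a median of -2.24 and 8 blood endothelial markers one of -1.13, where all genes had one of -0.39. At the unadjusted threshold 2 of each list were lower, against 14.4% of all genes. The leukocyte markers summed to 356 to 790 for ZT1 and 114 to 421 for ZT19, and the blood endothelial ones to 4924 to 7035 and 6096 to 10285. No marker of these 3 lists was at 0 in all libraries, and their part in the cell cycle values was not tested.

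The share of reads that fell on genes moved with ZT19 too. It was 20.2% to 29.5% at ZT1, 12.7% to 62.3% at ZT7, 20.1% to 80.0% at ZT13 and 35.0% to 81.6% at ZT19, and its log2 odds at ZT19 exceeded those at ZT1 by 2.26 (exact permutation test, two-sided, adjusted p = 0.0476 over 6 pairs). With these odds as a covariate, the median of the 39 genes was 1.22 for ZT19 against ZT7 and -1.03 for ZT7 against ZT1. Ccnb1 and Cdc20 then had adjusted p values of 0.193 and 0.25 among the 4 time points (edgeR).

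A further 94 genes of the cell cycle were read for comparison, from lists written with the results above known. Of these, 1 was called among the 4 time points (against the 0.422% of all genes above), and 14 stood at an unadjusted p of 0.05 or less (14.9% against the 15.7% above). Fen1, the flap endonuclease that trims the ends of lagging-strand fragments, was the gene called. Its normalized counts were 161, 201, 168, 231 and 273 at ZT1, 253, 492, 133, 229 and 193 at ZT7, 139, 131, 184, 241 and 300 at ZT13 and 1451, 514, 625, 553 and 367 at ZT19. ZT19 lay above ZT1 and ZT13 in every library, and the difference from ZT13 was 1.81 ± 0.42 on the log2 scale (SE; edgeR, adjusted p = 0.0402). Its adjusted p among the 4 time points was 0.0464, and the call was lost under RLE normalization (0.0653), upper quartile normalization (0.0745), the replicate block (0.161), the keratinocyte covariate (0.132), the odds covariate (0.444) and without the 7 libraries (0.112), and it held in 6 of 20 fits that left out 1 library. Rfc5, a subunit of the loader of Pcna, had means of 226 ± 95.8, 315 ± 94.8, 241 ± 87.8 and 699 ± 298 at ZT1, ZT7, ZT13 and ZT19 (SD, n = 5), with an adjusted p of 0.0615 (edgeR) among the 4 time points.

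Of 27 other genes of replication origins and forks, the median for ZT19 was 0.37 against ZT1, 0.57 against ZT7 and 0.76 against ZT13. For ZT7 and ZT13 against ZT1 their medians were -0.20 and -0.16. Of 30 other mitotic genes, the median was -0.93 for ZT7 against ZT1 and -0.98 for ZT13 against ZT1. For ZT19 that of the mitotic genes was 0.09 against ZT1, 0.79 against ZT7 and 0.92 against ZT13. The kinesin Kif22 had means of 296 ± 243, 67.5 ± 49.2, 95.7 ± 62.3 and 339 ± 161 (SD, n = 5), and its difference between ZT7 and ZT1 was -2.14 ± 0.62 (SE; edgeR, adjusted p = 0.687). Cdca3, which helps degrade the mitotic inhibitor Wee1, had means of 783 ± 606, 220 ± 156, 218 ± 95.1 and 666 ± 573.

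Regulators upstream of S phase came next. Over 9 G1 cyclins, their kinases and the Rb family, the median for ZT7 against ZT1 was 0.04, and over 12 inhibitors -0.21. For ZT19 the medians over the G1 genes were 0.39 against ZT1, 0.24 against ZT7 and 0.60 against ZT13, and those over the inhibitors 0.02, 0.37 and 0.60, with no gene of either list called in these pairs (edgeR). At an unadjusted p of 0.05 or less, 2, 2 and 1 of the G1 genes were higher at ZT19 and 2, 1 and 0 lower. Of the inhibitors, 0, 1 and 2 were higher and 1, 0 and 1 lower. The shares of all genes were 7.25%, 6.7% and 7.28% higher and 14.4%, 13% and 11.9% lower. Cdk4, the kinase of D cyclins, had means of 1220 ± 150, 1312 ± 664, 1167 ± 450 and 2270 ± 473 at ZT1, ZT7, ZT13 and ZT19 (SD, n = 5; edgeR, adjusted p = 0.242 among the 4 time points), and Ccnd3 of 314 ± 111, 324 ± 193, 416 ± 238 and 646 ± 133. The inhibitor Cdkn1b (p27) ran the other way, with 702 ± 269, 444 ± 184, 641 ± 555 and 286 ± 206. Its ZT13 mean held 1 library at 1593, with the others between 151 and 580. Cdkn2b was close to the floor, at 0 to 62.3 in single libraries.

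The E2F and DREAM regulators, 16 genes that switch cell cycle promoters on and off, had medians of -0.13 for ZT7 against ZT1 and 0.11 for ZT19 against ZT1, and ZT19 stood at 0.38 against ZT7 and 0.35 against ZT13. E2f6 had means of 218 ± 51.0, 154 ± 72.8, 308 ± 90.3 and 267 ± 131, and Tfdp1 of 385 ± 136, 555 ± 392, 336 ± 161 and 643 ± 194 (SD, n = 5). The genes known to link the circadian clock with the cell cycle did not pass the test: the adjusted p among the 4 time points was 0.855 for Wee1, 0.59 for Cdkn1a and 0.572 for Ccnd1 (edgeR). Wee1, the kinase that holds Cdk1 inactive, had means of 510 ± 298, 374 ± 70.1, 411 ± 131 and 406 ± 112.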

How the data were processed

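RNA of sorted dermal LECs was sequenced in 5 libraries for each of ZT1, ZT7, ZT13 and ZT19, made with SMART-Seq v4 and Nextera XT. The authors mapped reads to mm10 with STAR, counted them with HTSeq (version 1.0.0 in the submitters' processing notes) and deposited raw counts per gene symbol, without normalization. The annotation and the strand setting are not given in the sources used here. Rows that name no gene stayed out of library sizes. Of the reads on a gene or on no gene, the latter made up 18.4% to 87.3%. Positions are from GENCODE M21 (GRCm38).

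Counts were tested with edgeR 4.0.16 (R 4.3.3): TMM, filterByExpr by time point, and quasi-likelihood F-tests among the 4 time points (3 degrees of freedom), for a 24-h curve (2 degrees of freedom) and for 6 pairs, in one fit of 20 libraries, adjusted by Benjamini-Hochberg over 19209 genes. Called means an adjusted p under 0.05. For normalized counts, each count was divided by its library's effective size and multiplied by the geometric mean of all sizes. Library properties were compared by exact permutation over 252 assignments. Libraries are separate pools of animals, whose spread the p-values measure.

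The members and lists were chosen with earlier results of these data known. Named were Top2a, every gene called, in each role the 3 with the smallest p among time points and the 1 with the highest mean, in each other list the 2 with the smallest p, and Wee1, Cdkn1a and Ccnd1.

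Alternatives were DESeq2 1.42.0, RLE and upper quartile normalization, no filter or at least 20 counts in at least 10 libraries, the replicate number as a block, a covariate for the keratinocyte marker level or for the share of reads on genes (log2 odds), and each library left out. Leaving out libraries with under 17000 genes detected was added after seeing the data. Tested on simulated data (18056 genes), the test among time points called 1 of 49 genes changed by 1 on the log2 scale, 26 of 50 at 2, 29 of 46 at 3, 34 of 48 at 4 and 3 of 17863 not changed.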

Additional observations from a re-analysis of the deposited data

Results flagged for a closer look

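On the scale of log2(normalized count + 1), 3 values of the named genes lay farther from the other 4 libraries of their time point than a Dixon test at the 95% level allows. Birc5 was at 0 normalized counts in ZT7 replicate 2, with the other 4 libraries between 104 and 209 (gap over range 0.869 on that log2 scale). Mki67 was at 168 in the same library, with the others between 511 and 633 (0.839). Bub1b was at 2.12 in ZT13 replicate 2, with the others between 54.3 and 174 (0.714). Both libraries are among the 7 with under 17000 genes detected, and up to 4 genes of the list were at 0 in one library. Of 64 groups of 5 tested, 3 were set apart, where chance gives 3.2. On the counts themselves, without the logarithm, 6 of the 64 were set apart, of which Mki67 at ZT7 was common to both scales. The other 5 were high values, of Mcm5 (821) in ZT1 replicate 5, Ccna2 (311) in ZT7 replicate 5, Aurka (168) in ZT13 replicate 2, Hmgb2 (2797) in ZT7 replicate 1 and Prc1 (1743) in ZT1 replicate 3. Beside the counts on genes, a library held reads that fell on no gene, with a median share of 72.6%.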

How the results depend on the processing

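Of the 39 genes tested, 2 were called among the 4 time points. DESeq2 called 5, the filter at 20 counts 1 (Pcna) and the odds covariate 1 (Tpx2), with Ccnb1 and Cdc20 lost in the last pair of fits, and RLE normalization, upper quartile normalization, the replicate block, the keratinocyte covariate and leaving out the 7 libraries with few genes detected gave 0. At an unadjusted p of 0.05 or less, upper quartile normalization gave 11 in place of 19 among the time points, 14 in place of 23 for the curve and 7 in place of 12 for ZT7 against ZT1. These 7 were lower at ZT7, against 2% of all genes in that fit. DESeq2 called 3 in place of 0 for the curve, 2 for ZT19 against ZT1, 6 for ZT19 against ZT7 and 3 for ZT19 against ZT13. With the keratinocyte covariate 1 was called for ZT19 against ZT1 and 5 for ZT19 against ZT7. At the unadjusted threshold there were 3 in place of 7 for ZT13 against ZT1 and 6 in place of 19 for ZT19 against ZT13. In that fit 1.57% of all genes were lower for ZT13 against ZT1, and 3.42% were higher and 20.4% lower for ZT19 against ZT13. With the odds covariate there were 1 in place of 5 for ZT19 against ZT1 and 2 in place of 0 for ZT13 against ZT7. Of all genes, 6.49% were higher and 2.59% lower in the former pair, and 2.73% higher and 2.09% lower in the latter. The filter at 20 counts called 1 for ZT19 against ZT13. The share of all genes called is not given here for any alternative, so the counts of calls cannot be set against it.

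Without the 7 libraries, 1 was called for ZT19 against ZT7, and at the unadjusted threshold 10 in place of 22 were higher in that pair. Of all genes, 11.2% in place of 6.7% were higher there. For ZT19 against ZT13, 8 in place of 19 were higher, against 8.81% in place of 7.28% of all genes. The median log2 fold change of the 39 genes went to -0.38 for ZT19 against ZT1 and to 0.69 for ZT19 against ZT7. That of Aurka reversed to -0.99. Fewer libraries enter these fits, and the cause was not tested beyond that. Of the 94 other cell cycle genes, DESeq2 called 3 and the normalizations, the block, both covariates and this subset 0, in place of 1.

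With each library left out in turn, the genes called ranged from 0 to 2 among the time points, 0 to 2 for the curve, 0 to 2 for ZT19 against ZT1, 0 to 4 for ZT19 against ZT13 and 0 to 2 of the other genes. At the unadjusted threshold they ranged from 4 to 12 for ZT13 against ZT1, 3 to 8 for ZT19 against ZT1 and 0 to 1 for ZT13 against ZT7. Ccnb1 stayed under an adjusted p of 0.05 in 6 of 20 such fits (0.0273 to 0.166) and Cdc20 in 3 of 20 (0.0112 to 0.185), with the highest value of each without ZT19 replicate 5.

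Whether the replicate numbers pair the libraries is not in the labels. For ZT13 against ZT1, same-numbered libraries deviated together, with a mean correlation of 0.174 (lowest 0.079) against -0.0385 for other numbers. In the other pairs the means for the same number lay between -0.0384 and 0.072. A day or batch shared by number was not tested, and the block moved the calls as given. RLE normalization shifted the median of all genes for ZT7 against ZT1 from 0.05 to 0.19 and upper quartile normalization to 0.26, where the 39 genes had medians of -0.78 and -0.74. Ccne1 and Cdkn2b were at 0 in some libraries, deep ones among them, and differences at that level cannot be read.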
